A study of Mus musculus with 8 samples.

Results

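The genes described here encode crosslink and structure-specific nucleases, enzymes that cut DNA at branches, flaps and junctions, with the scaffold that holds several of them. They were chosen by name as 10 genes, and every probe set of the array that names 1 of them alone was taken. Of these genes 9 were measured, by 18 probe sets, among 17097 genes tested in all, and Fan1, the nuclease recruited by ubiquitinated FANCD2, was not analysed here. Where a gene had several probe sets, the one with the highest mean over the 8 arrays stands for it.

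The cells were mouse embryonic stem (ES) cells of strain C57BL/6, described as HPRT deficient, at passages 19 to 22, and both groups share this background. One group of 4 arrays came from cells given 2.5 µM cisplatin for 8 h and the other group of 4 from cells given the solvent dimethyl sulfoxide for the same time, and the replicates are numbered 3 to 6 in each. The cultures had passed over feeder-coated and then gelatin-coated plates. The labels do not tell whether replicates were separate cultures, and the p-values then rest only on how far these arrays scatter, possibly for technical reasons.

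Cisplatin links bases within one DNA strand and, less often, across both strands. An interstrand crosslink blocks replication until nucleases cut beside it, a step called unhooking, after which other enzymes fill the gap and rejoin the broken arm. SLX4 is the platform on which ERCC1-ERCC4 (XPF), MUS81-EME1 and SLX1 act, GEN1 cuts the four-way junctions that recombination leaves, and the exonucleases DCLRE1A (SNM1A), DCLRE1B (Apollo) and EXO1 trim DNA ends.

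Values are log2 expression on the authors' RMA scale, and a change is the cisplatin mean minus the control mean, so that a change of 1 would be a doubling of signal. Over the tested genes the correlation between arrays was 0.997 to 0.998 inside a group and 0.992 to 0.995 across groups, with a median standard error of a change of 0.08. Probes that match no transcript, with 24 of 25 bases G or C, read 3.10. All 11 ES cell markers measured lay above that level, with Pou5f1, the stem cell factor OCT4, at 12.19 ± 0.06 after cisplatin and at 12.23 ± 0.06 without it (SD over 4 arrays). Of these markers 7 were lower (63.6%, against 7.69% of all genes) and 4 did not pass. Esrrb, Fbxo15, Zfp42 and Lin28a fell by 0.55, 0.42, 0.34 and 0.33 on the log2 scale (Lin28a by 0.22 with the mean of its probe sets). Of 18 fibroblast markers, which feeder cells would carry, 9 lay below the 3.10 of the background probes in both groups. The defining collagen genes Col1a1 and Col1a2 were at 3.37 and 2.48 with cisplatin and at 3.46 and 2.49 in the controls. Other markers of the list lay far higher, with Fn1 and Acta2 at 9.89 and 8.58 with cisplatin and at 10.20 and 8.43 in the controls. The mean over the fibroblast list ran from 3.93 to 4.26 on the cisplatin arrays and from 3.96 to 4.16 on the control arrays; 3 of its genes were higher (Mmp2 by 0.60, Thy1 by 0.61 and Fbln2, which lies below background, by 0.20) and 1 was lower (Fn1, by -0.32), and 14 did not pass. The shares called higher and lower were 16.7% and 5.56%, against 11.6% and 7.69% of all genes. Thy1 was lost without control replicate 3 (limma adjusted p = 0.0519). Fbln2 was lost with centred arrays (0.351) and when cisplatin replicate 5 or 6 or any of control replicates 3 to 5 was dropped (at most 0.0728). The part of both marker lists in the results was not tested. In bulk samples such as these, fewer cells of a type and less RNA per cell cannot be told apart.

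The windows around the annotated transcription start of Slx4, Dclre1a and Eme1 are shown because these were the members whose cisplatin arrays all lay above all control arrays. Each holds 250 bases before the start and 50 after it, from RefSeq on GRCm38.p6, and 9 of the 10 genes matched an entry of that table. Exo1 had no entry there, so the 9 windows include that of Fan1, which was not measured, and none of Exo1. The capitals mark matches, on either strand, to TTCCCGCC (an E2F-type element), CCGGAAGT (an ETS element), CCAAT (NF-Y), CACGTG (an E-box) or the p53 consensus half-site.
Slx4, chr16:4001629-4001928, minus strand: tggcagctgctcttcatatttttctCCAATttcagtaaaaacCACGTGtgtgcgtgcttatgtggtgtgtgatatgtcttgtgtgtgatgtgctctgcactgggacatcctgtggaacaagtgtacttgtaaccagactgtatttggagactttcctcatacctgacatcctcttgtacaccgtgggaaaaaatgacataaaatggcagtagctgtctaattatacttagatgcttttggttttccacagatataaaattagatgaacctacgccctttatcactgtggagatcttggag
Dclre1a, chr19:56548173-56548472, minus strand: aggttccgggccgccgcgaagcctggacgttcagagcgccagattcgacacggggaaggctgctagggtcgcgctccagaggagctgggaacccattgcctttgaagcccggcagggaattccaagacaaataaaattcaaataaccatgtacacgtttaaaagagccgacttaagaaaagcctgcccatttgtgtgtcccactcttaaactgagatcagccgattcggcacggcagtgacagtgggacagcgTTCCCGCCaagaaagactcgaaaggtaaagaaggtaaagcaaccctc
Eme1, chr11:94653694-94653993, minus strand: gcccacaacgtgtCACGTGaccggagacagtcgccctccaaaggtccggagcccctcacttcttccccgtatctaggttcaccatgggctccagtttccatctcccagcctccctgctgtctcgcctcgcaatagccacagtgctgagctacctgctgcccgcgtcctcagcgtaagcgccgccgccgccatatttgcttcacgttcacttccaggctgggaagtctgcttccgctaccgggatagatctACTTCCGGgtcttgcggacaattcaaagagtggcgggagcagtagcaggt
The matches in these windows do not overlap one another. The Slx4 window belongs to an annotated start inside the span that RefSeq gives the gene. Whether transcription begins there, and so whether this window is a promoter, was not tested. The matches counted for Slx4 carry that limit. The Slx4 window has 41.3% G or C and 4 CpG pairs, against 53.3% and 19 for Dclre1a and 60% and 21 for Eme1. The E2F-type element was found in Dclre1a alone among the 9 windows and in 2.19% of all 32851 windows of the same length. The ETS element was found in Ercc1, Eme1 and Gen1 (3.89% of all windows), CCAAT in Ercc4 and Slx4 (37.4%) and the E-box in Slx4 and Eme1 (7.15%). None of the 9 windows held the p53 half-site, which 8.36% of all windows held. Such matches describe the letters of a window and name no bound factor.

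The comparison asked which of these nuclease genes changed their transcript level within 8 h of cisplatin. The scaffold gene Slx4 rose 1.30-fold and the exonuclease gene Dclre1a 1.22-fold. The other 7 measured members, among them both partners of ERCC1-ERCC4 and of MUS81-EME1, did not pass the test. Thus 2 of 9 members were called higher at an adjusted p under 0.05 (limma), where 11.6% of all genes were, and no member was called lower, where 7.69% of all genes were. At an unadjusted p under 0.05, 5 members were higher and 0 lower, where 18.4% and 12.7% of all genes were. The median change was 0.17 over the 9 members and 0.01 over all genes. The arrays' medians differed by 0.13 between the groups. Centring each array on its median lowered every change by that amount and ended both calls (limma adjusted p = 0.0544 for Slx4, at 0.25, and 0.133 for Dclre1a, at 0.16). As the median change over all genes was only 0.01, centring also put the median gene below 0. It gave 1088 genes higher and 3925 lower of 17097, in place of 1989 and 1314. Signs and calls given with centred arrays carry that shift.

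**Figure D1:**
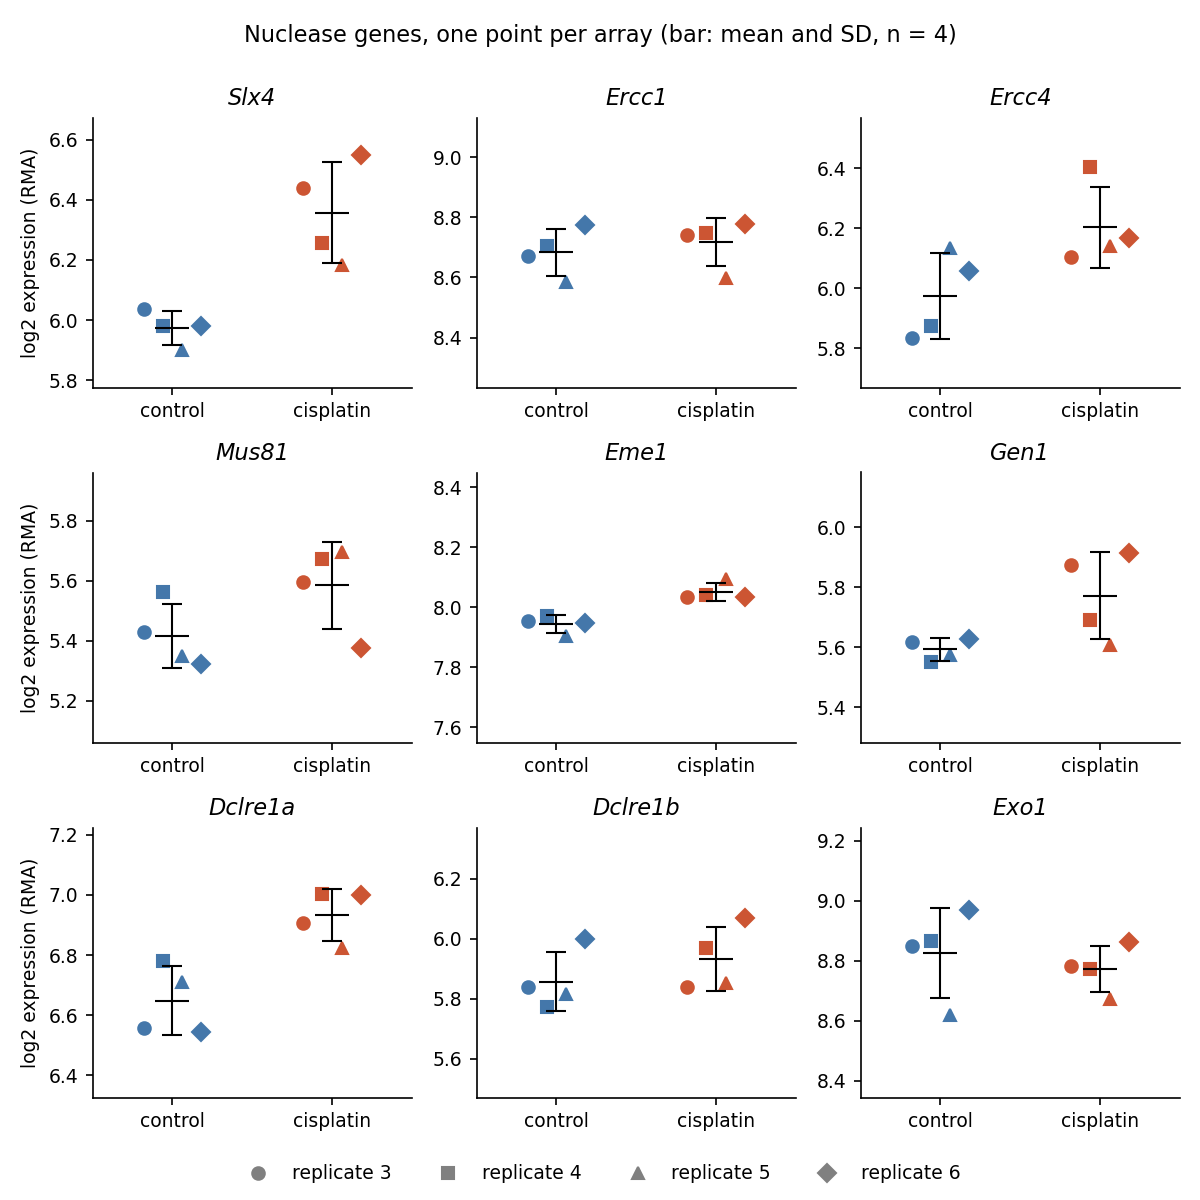
Log2 expression of the 9 measured genes on each of the 8 arrays, in controls (blue) and with cisplatin (orange); marker shapes give the replicate number and bars the mean and SD of 4 arrays, and every panel spans the same range of log2 units. In Slx4, Dclre1a and Eme1 the groups do not overlap, whereas in Ercc1 they cover nearly the same range and in Exo1 the treated arrays lie inside the range of the controls.

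Slx4 encodes the scaffold. Its single probe set read 6.44, 6.25, 6.18 and 6.55 with cisplatin in replicates 3 to 6 and 6.04, 5.98, 5.90 and 5.98 in the controls. Every cisplatin array lay above every control array, and replicates 3 and 6 were the highest of the treated group. The treated arrays spread more, with 6.36 ± 0.17 (SD, n = 4) against 5.97 ± 0.06. The change was 0.38 ± 0.08 (SE, 4 arrays against 4; limma adjusted p = 0.00905), and it passed whichever array was left out, with adjusted p-values from 0.00600 to 0.0290.

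The obligate pair ERCC1-ERCC4 makes the incision on the 5′ side of a bulky lesion in nucleotide excision repair and is a main unhooking nuclease of crosslink repair. Ercc4, which encodes the catalytic subunit, read 6.10, 6.40, 6.14 and 6.17 with cisplatin and 5.83, 5.87, 6.13 and 6.06 in the controls. Replicate 4 was the highest treated array, and the groups overlapped through 1 treated array, replicate 3, which lay below control replicate 5. The change was 0.23 ± 0.09 (95% interval 0.03 to 0.43), which did not pass after adjustment over all genes (limma adjusted p = 0.108). Of the other 3 Ercc4 probe sets, 2 gave positive changes, 0.27 and 0.20, and 1 gave -0.03, and none passed.

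Ercc1, the partner subunit that lacks nuclease activity and binds DNA, read 8.74, 8.75, 8.60 and 8.78 with cisplatin and 8.67, 8.70, 8.59 and 8.77 in the controls. In both groups replicate 5 was the lowest array and replicate 6 the highest, and the ranges nearly coincided. The change was 0.03 ± 0.06, with a 95% interval from -0.11 to 0.17 (limma adjusted p = 0.784), so an increase of the size seen for Slx4 lies outside the interval. A second well-detected probe set, with a mean of 8.25, gave 0.06, and the remaining 2 had means of 3.02 and 2.87, below the background probes. The sign of Ercc1 turned to -0.10 with centred arrays and to -0.04 by its most variable probe set, 1 of those below background.

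MUS81-EME1 cleaves stalled forks, flaps and nicked junctions, with MUS81 as the catalytic subunit. Mus81 read 5.59, 5.67, 5.70 and 5.38 with cisplatin and 5.43, 5.56, 5.35 and 5.32 in the controls. Treated replicate 6 lay below 2 of the control arrays, and the groups overlapped. The change was 0.17 ± 0.08 (limma adjusted p = 0.203).

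Eme1, the non-catalytic partner, had the tightest groups of the 9 genes, at 8.05 ± 0.03 for the treated arrays and 7.94 ± 0.03 for the untreated ones (SD, n = 4). Its arrays read 8.03, 8.04, 8.10 and 8.03 with cisplatin against 7.96, 7.97, 7.90 and 7.95. The groups did not overlap, as in 3 of the 9 members, where 14.2% of all genes had every cisplatin array above every control array; 0 members and 10.1% of all genes had them all below. The change of 0.11 ± 0.05 did not pass (limma adjusted p = 0.157). It passed without moderation of the variances (ordinary t statistic of the linear model, adjusted p = 0.0211) and with genes below the brighter background probes, at 4.90, left out (limma adjusted p = 0.0476), but not with those below 3.10 left out (0.0839). It turned to -0.02 with centred arrays.

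Gen1 encodes a Holliday junction resolvase of the Rad2 family that acts alongside SLX4-bound MUS81-EME1. It read 5.87, 5.69, 5.61 and 5.91 with cisplatin and 5.62, 5.55, 5.57 and 5.63 in the controls. Replicates 3 and 6 were high among the treated arrays, as for Slx4, while treated replicate 5 fell within the control range. The change was 0.18 ± 0.07 (95% interval 0.01 to 0.34; limma adjusted p = 0.128), or 0.05 with centred arrays.

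Dclre1a encodes the exonuclease SNM1A, which can digest DNA past a crosslink that has been unhooked. It read 6.91, 7.00, 6.82 and 7.00 with cisplatin and 6.56, 6.78, 6.71 and 6.54 in the controls. All treated arrays lay above all control arrays, with the smallest gap between treated replicate 5 and control replicate 4. The change was 0.29 ± 0.07 (limma adjusted p = 0.0198). The call was lost when cisplatin replicate 4 or 6 or control replicate 3 or 6 was left out (limma adjusted p = 0.0554, 0.0548, 0.0598 and 0.0501). A second probe set of the gene, with a mean of 3.16 that is close to the background probes, gave -0.09 ± 0.08 and did not pass. With the mean of both probe sets the change was 0.10 (limma adjusted p = 0.362).

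Dclre1b encodes the related nuclease Apollo, which processes chromosome ends together with the telomere protein TRF2. It read 5.84, 5.97, 5.85 and 6.07 with cisplatin and 5.84, 5.77, 5.82 and 6.00 in the controls. The groups overlapped, and replicate 6 was the highest array in each. The change was 0.08 ± 0.07 (95% interval -0.09 to 0.24; limma adjusted p = 0.544), and it turned to -0.05 with centred arrays and to -0.03 when quantile normalization was applied again.

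Exo1 encodes an exonuclease of mismatch repair and of the resection of broken ends. It read 8.78, 8.77, 8.67 and 8.86 with cisplatin and 8.85, 8.87, 8.62 and 8.97 in the controls. Its treated arrays lay inside the range of the controls. The change was -0.05 ± 0.08 (95% interval -0.23 to 0.12; limma adjusted p = 0.727). The other Exo1 probe sets gave -0.11 at a mean of 7.78 and -0.12 at a mean of 2.76, the latter below the background probes. All 3 were negative and none passed.

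**Figure D2:**
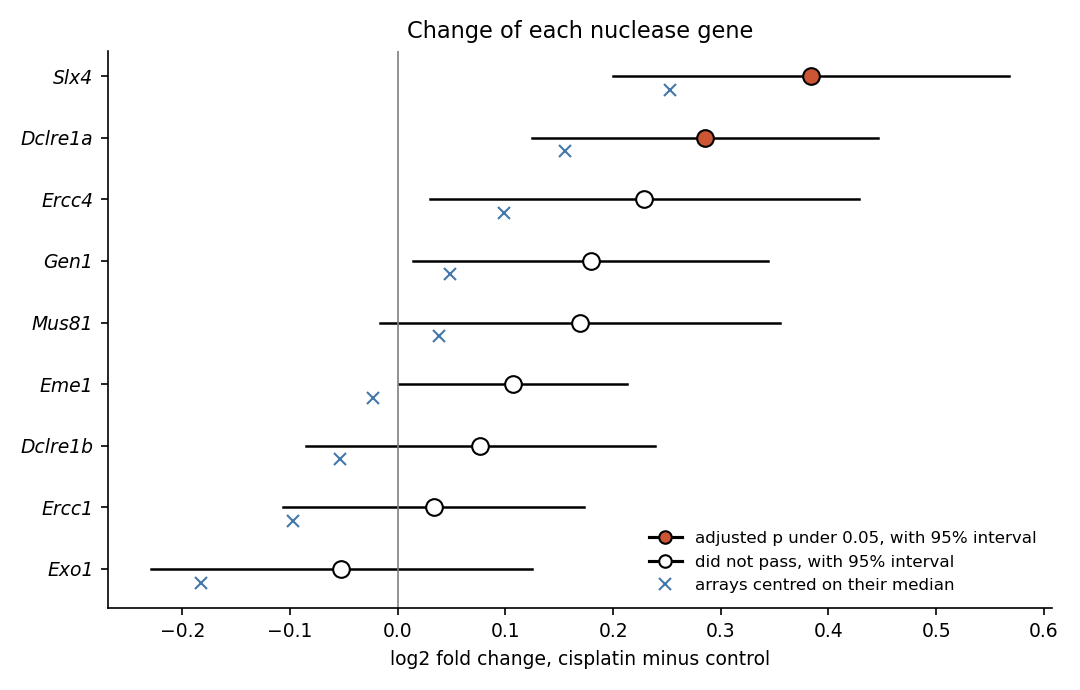
Log2 fold change (cisplatin minus control) of the 9 genes on the horizontal axis, with 95% intervals from limma; filled circles passed at an adjusted p under 0.05 and crosses give the change after each array was centred on its median. Slx4 and Dclre1a are the 2 filled points, and the crosses lie 0.13 to the left of every circle.

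**Figure D3:**
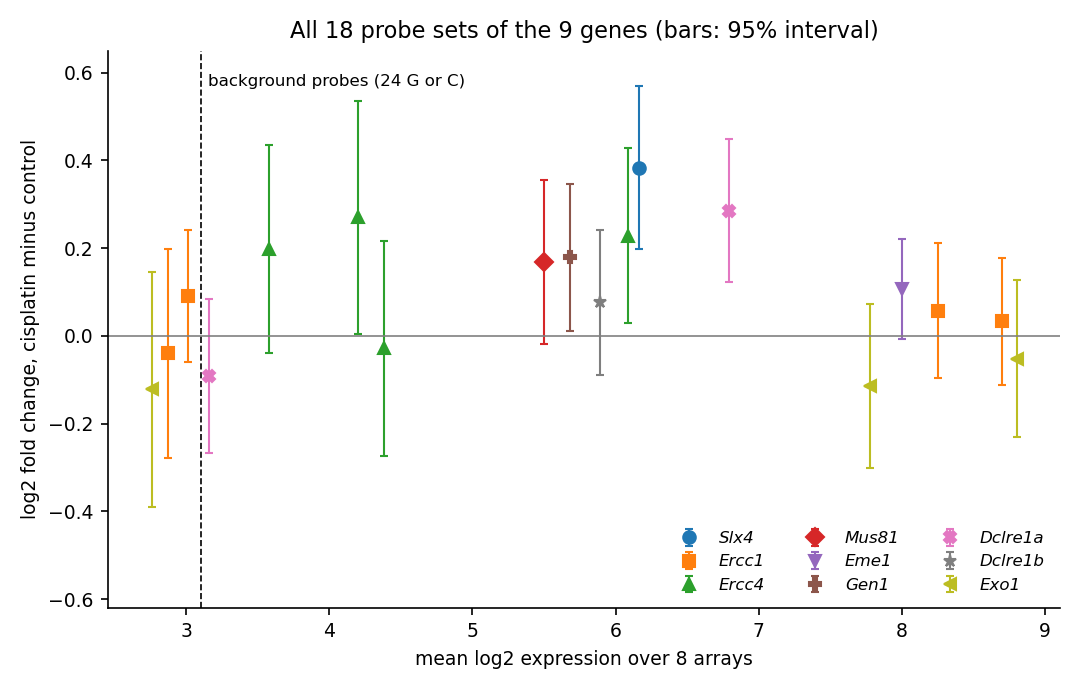
Log2 fold change of all 18 probe sets of the 9 genes against their mean log2 expression over the 8 arrays, with 95% intervals; the dashed line marks the background probes at 3.10. The probe sets left of or at the line, of Ercc1, Dclre1a and Exo1, have intervals that include 0, and the probe sets of Exo1 lie below 0 throughout.

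Whether 2 members of a complex or family changed unequally was asked for 6 pairs, on the difference of their log2 values within each array, which centring cannot move. The exact permutation test over 70 assignments of the arrays, two-sided, can give no p below 0.0286. After adjustment over 6 pairs a single pair at that floor would reach 0.171, and at least 4 pairs would have to lie there for any to pass, so the adjusted test could not have called 1 pair alone. Dclre1a changed by 0.21 ± 0.11 more than its relative Dclre1b, and Gen1 by 0.23 ± 0.08 more than Exo1, each with exact p = 0.0857 and an adjusted p of 0.257 over the 6 pairs. With the mean of probe sets the first difference was only 0.02 and the second 0.28 (exact permutation test, adjusted p = 0.914 and 0.171). For Ercc1 minus Ercc4 the difference was -0.20 ± 0.11 (exact p = 0.143, adjusted p = 0.286). For Slx4 minus Mus81 it was 0.21 ± 0.16 and for Slx4 minus Ercc4 0.15 ± 0.16 (exact p = 0.286 and 0.343, adjusted p = 0.411 for both). Mus81 minus Eme1 gave 0.06 ± 0.08 (exact p = 0.457, also after adjustment). The per-array differences of the groups overlapped in all 6 pairs.

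The 3 genes whose values over the 8 arrays were most like those of Slx4, among all genes tested, were Pgm2l1 (Pearson r = 0.995), Pole3 (0.984) and Ttll6 (0.982). These correlations contain the difference between the groups. The changes were 0.37 ± 0.08 for Pgm2l1, 0.22 ± 0.06 for Pole3, which encodes a histone-fold subunit of DNA polymerase epsilon, and 0.53 ± 0.09 for Ttll6.

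Other nucleases of DNA repair and replication were read from a list of 17 genes, of which 15 were measured. Of these 4 were higher, 1 lower and 10 did not pass, with a median of -0.05. The shares were 26.7% and 6.67%, against 11.6% and 7.69% of all genes. With centred arrays 1 was higher and 7 lower, where 1088 and 3925 of all 17097 genes were. Ercc5 encodes XPG, which makes the incision on the 3′ side of the lesion opposite ERCC1-ERCC4. It read 8.28, 8.45, 8.66 and 8.34 with cisplatin and 7.27, 7.37, 7.36 and 7.14 in the controls, a rise of 1.15 ± 0.09 (limma adjusted p = 4.25e-05). Ercc5 was highest on treated replicate 5, the array on which Slx4 was lowest among the treated.

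Dna2, a nuclease and helicase of end resection, rose by 0.29 ± 0.06, the flap endonuclease gene Fen1 by 0.19 ± 0.05 and the mismatch repair gene Pms2 by 0.24 ± 0.07. With centred arrays these 3 no longer passed (limma adjusted p = 0.0839, 0.479 and 0.305). Nor did they with every gene read by its most variable probe set (limma adjusted p = 0.0881, 0.0630 and 0.0565). In that setting the changes of Fen1 and Pms2 themselves stayed at 0.19 and 0.24, and that of Dna2 was 0.33. Fen1 also missed the threshold when any of cisplatin 3, 5 and 6 or control 3, 4 and 5 was dropped (adjusted p up to 0.0925). Pms2 did so when any of cisplatin 3 and 6 or control 3, 4 and 5 was dropped (up to 0.108) and with the mean of its probe sets (0.230). Wrn, the Werner helicase with an exonuclease domain, fell by 0.63 ± 0.11 on the log2 scale (limma adjusted p = 0.00367). Slx1b, the nuclease that SLX4 activates, was at -0.06 ± 0.06 (adjusted p = 0.604), and Eme2, the alternative partner of MUS81, at -0.21 ± 0.09 (adjusted p = 0.148).

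Of 17 measured partners that bind or recruit these nucleases, 3 were higher, 2 lower and 12 did not pass, with a median of 0.02. These shares were 17.6% and 11.8%, against 11.6% and 7.69% of all genes. With centred arrays 1 partner was higher and 5 lower, where 1088 and 3925 of all 17097 genes were. Terf2 encodes TRF2, which binds both Apollo and SLX4 at telomeres. It read 7.73, 7.74, 7.95 and 7.77 with cisplatin and 6.95, 7.19, 7.18 and 6.75 in the controls. The groups lay far apart relative to their spread, with a rise of 0.78 ± 0.10 (limma adjusted p = 0.000600).

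Slx4ip, which encodes an SLX4-interacting protein, went the other way, with 5.15, 5.00, 4.97 and 5.13 with cisplatin and 5.76, 5.61, 5.75 and 5.59 in the controls. All treated arrays lay below all controls, and the gene fell by 0.61 ± 0.07 on the log2 scale (limma adjusted p = 0.000208). Thus Slx4 and the gene of its interacting protein, which each passed, had opposite signs. Msh3, a mismatch recognition gene, fell by 0.51 ± 0.10 on the log2 scale, or by 0.26 with the mean of its probe sets. Rad52, an annealing factor of recombination, rose by 0.31 ± 0.07, and Rpa2, a subunit of the single-strand binding protein, by 0.19 ± 0.05. Rad52 no longer passed with centred arrays or the mean of its probe sets (limma adjusted p = 0.0901 and 0.245). Rpa2 no longer passed with centred arrays (0.438), by its most variable probe set (0.0854) or when any of cisplatin 3 and 6 or control 3 and 5 was dropped (up to 0.0688). Xpa, which docks ERCC1-ERCC4 in excision repair, was at 0.09 ± 0.08 (adjusted p = 0.462).

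In the Fanconi anemia pathway, which senses the crosslink and recruits SLX4 through ubiquitinated FANCD2, 3 of 23 genes were higher, 2 lower and 18 did not pass, with a median of 0.01. These shares, 13% and 8.7%, lie close to those of all genes (11.6% and 7.69%). With centred arrays 1 gene of the pathway was higher and 7 lower, where 1088 and 3925 of all 17097 genes were. Faap100, a core complex subunit, rose by 0.41 ± 0.07 and Fancb by 0.34 ± 0.08, and the recombination gene Rad51c by 0.23 ± 0.06. Fancm, the translocase that recruits the core complex, fell by 0.35 ± 0.08 on the log2 scale and Fancc by 0.27 ± 0.07. Fancd2 and Fanci, the pair that is ubiquitinated and that the list of partners also holds, were at 0.00 ± 0.05 and 0.02 ± 0.06 (limma adjusted p = 0.990 and 0.880). Centring ended the calls of Fancb and Rad51c (adjusted p = 0.0806 and 0.277), and the mean of the probe sets those of Fancm and Fancc (0.0855 and 0.354). Fancm was also lost by its most variable probe set (-0.17, adjusted p = 0.521), and Fancc with an intensity trend (0.0598). Dropping any of cisplatin 3 to 5 or control 5 and 6 ended the call of Fancc (up to 0.0671), and dropping any of cisplatin 3, 5 and 6 or control 3, 4 and 6 that of Rad51c (up to 0.0915), whose groups overlap.

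Junctions can also be taken apart without a cut, by BLM with TOP3A and the RMI proteins. Of 9 genes of that kind and of related helicases, 1 was higher, 1 lower and 7 did not pass, with a median of -0.02. Each call makes 11.1% of the list, against 11.6% of all genes higher and 7.69% lower. With centred arrays 0 were higher and 3 lower by limma, where 1088 and 3925 of all 17097 genes were. Helq, a helicase of crosslink repair, was higher by 0.23 ± 0.07, close to the threshold (limma adjusted p = 0.0444). Its call was lost with centred arrays (0.352), by the most variable probe set (-0.03, adjusted p = 0.895), with the mean of the probe sets (0.483), and when any of cisplatin 3, 4 and 6 or control 3, 4 and 5 was dropped (up to 0.110). Mcm9, a helicase of recombination, fell by 0.54 ± 0.10 on the log2 scale (adjusted p = 0.00329), or by 0.24 with the mean of its probe sets.

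Several nucleases act in set phases of the cell cycle, so phase genes were read beside them. Of 19 S phase genes 2 were higher, the cyclin gene Ccne2 at 0.39 ± 0.06 (0.26 with centred arrays, still called) and Rrm2, needed to make deoxynucleotides, at 0.26 ± 0.06, and none was lower by limma (6 higher and 0 lower at an unadjusted p under 0.05, where 18.4% and 12.7% of all genes were). The adjusted calls make 10.5% and 0% of the list, against 11.6% and 7.69% of all genes. With centred arrays 1 was higher and 3 lower, where 1088 and 3925 of all 17097 genes were. Rrm2 was lost with centred arrays and by its most variable probe set (limma adjusted p = 0.112 and 0.0565). Of 19 genes of G2 and mitosis 15 were lower (78.9%, against 7.69% of all genes) and none was higher by limma (1 higher at an unadjusted p under 0.05). The list was led by the mitotic kinase genes Plk1, which fell by 0.77 ± 0.05 on the log2 scale, and Aurka, by 0.50 ± 0.05. Tpx2 and the kinesin gene Kif11 were at -0.48 ± 0.06 and -0.42 ± 0.05. Of 18 p53 targets 17 were higher (94.4%, against 11.6% of all genes), with a median of 1.15, a list that includes Ercc5. Its smallest p-values were those of Btg2 (2.22 ± 0.12), Plk2 (2.25 ± 0.15), Phlda3 (1.64 ± 0.12) and Ephx1 (2.06 ± 0.16). The part of the cell cycle and of p53 activity in the nuclease changes was not tested.

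**Figure D4:**
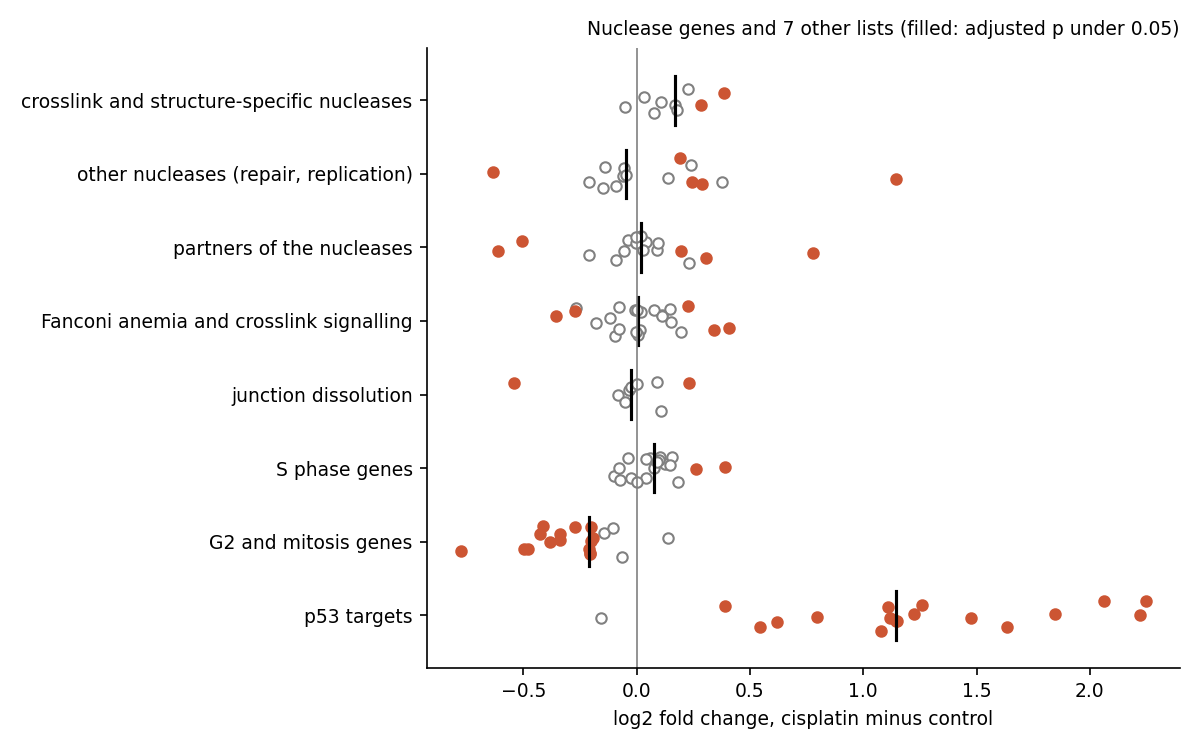
Log2 fold change (cisplatin minus control) of each measured gene of the nuclease list and of 7 other lists, 1 point per gene; filled points passed at an adjusted p under 0.05 and vertical bars are list medians. The nuclease genes lie between -0.05 and 0.38 with a median of 0.17, while the p53 targets have a median of 1.15 and the genes of G2 and mitosis one of -0.21.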

How the data were processed

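Total RNA of 8 samples was labelled from the 3′ end and hybridised to 1 array each, per the labels' protocols. The authors deposited log2 values per probe set, made by RMA per the submitters' processing notes, which also name limma, without versions. Normalizing arrays to each other hides any change of total RNA per cell. The table holds 45141 probe sets, of which 28898 name 1 gene in the platform annotation; symbols were updated by Entrez identifier through RefSeq (GRCm38.p6, 16937 of 17097 genes). Each gene is read by its probe set with the highest mean, except in the alternatives.

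The groups were compared with limma 3.58.1 in R 4.3.3 (lmFit, eBayes, group only), with Benjamini-Hochberg adjustment over 17097 genes and a threshold of 0.05, without a filter on dim genes. The code was tested on simulated data of 17097 genes. It recovered 98 of 100 genes given a log2 change of 1, but 20 of 100 given 0.3. Fewer genes changed there than the 3303 called in the data, which makes the adjustment stricter. A gene that did not pass is therefore not shown to be unchanged. The members and lists were chosen with earlier results of these data known. All 10 members, the 4 called list genes with the smallest p, all called genes of lists with 5 or fewer calls, and the 3 genes most correlated with the member of smallest p were named; other list genes were named after their values were seen. Alternatives covered probe sets, dim genes, normalization, test settings, a replicate block and each array left out. Figures were drawn with matplotlib 3.10.9.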

Additional observations from a re-analysis of the deposited data

Results flagged for a closer look

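The check covered 47 genes named by rule, that is the measured members, the called list genes that the rule names and the 3 genes most like Slx4. The remaining called list genes, among them most called p53 targets and mitosis genes, were not checked, nor were list genes named after their values were seen. Single arrays stood apart from the other 3 of their group in 4 of 94 groups, by the gap to the nearest array relative to the group's range. Chance marks about 1 in 20 such groups. Eme1 was at 8.10 on cisplatin replicate 5, where the other treated arrays lay at 8.03 to 8.04. Terf2 was at 7.95 on the same array, above the 7.73 to 7.77 of the others. Mcm9 was low on replicate 3 in both groups, at 4.64 with cisplatin against 5.04 to 5.10 and at 5.46 in the controls against 5.52 on each of the others.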

How the results depend on the processing

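With centred arrays 0 members were called higher in place of 2, and over all genes 1088 were higher and 3925 lower in place of 1989 and 1314. Ercc1, Eme1 and Dclre1b then turned to -0.0972, -0.0235 and -0.0541. Ercc1 turned to -0.0398 by its most variable probe set and Dclre1b to -0.0280 when quantile normalization was applied again. With the mean of probe sets 1 member was called higher, and likewise with the mean of those above background, an alternative chosen after the data were seen. At a threshold of 0.01, 1 member was higher, and 1113 genes were higher and 742 lower. Leaving out each array in turn gave 1 to 2 members higher and 0 lower. Slx4 kept its call under 19 of 20 alternatives and Dclre1a under 12 of 20. Eme1 passed under 2 of 20, and Ercc1, Ercc4, Mus81, Dclre1b, Gen1 and Exo1 passed under none of theirs. With a replicate block both member calls held (limma adjusted p = 0.0106 for Slx4 and 0.0328 for Dclre1a) among 2111 higher and 1336 lower genes; the block changed no call named in the text. Same-numbered arrays deviated together at correlations of 0.06 to 0.20 over genes, each treated array correlating best with its own number, a hint from the data and not the design. The 4 arrays per group limit the precision. The highest-GC probes, of 25 G or C, read 4.90, above the 3.10 of those with 24, and the filter on dim genes used the former as planned and the latter as an addition.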

Other observations

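Within the groups, the deviations of the members from their group means moved together for some pairs. Over the 8 arrays, which the genes share, Slx4 and Gen1 gave a Pearson r of 0.94, Ercc1 and Exo1 0.91 and Mus81 and Eme1 0.63. Pairs that are not partners reached as much as Mus81 and Eme1, with Ercc1 at 0.65 with Dclre1b, 0.65 with Slx4 and 0.64 with Gen1. Mus81 ran opposite to Gen1 at -0.76, to Dclre1b at -0.73 and to Slx4 at -0.65, whereas the partners Ercc1 and Ercc4 gave 0.01. These values describe 8 arrays and carry no test.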
